A study of Laccaria bicolor with 20 samples.

Results

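The response of Laccaria bicolor S238N, a mushroom-forming fungus of tree roots, to growth without ammonium was examined in free-living mycelium by comparing the 3 RNA sequencing libraries titled Minus N (−N) with the 3 titled Control. These are 6 of the 20 libraries of the series, and all gene models that passed the filter on low counts were followed, 14725 of the 23130 listed. Agar colonies spent 2 weeks on MMN, a modified Melin Norkrans medium, and 1 further week on the test medium at 25 °C without light. Control MMN held 1.89 mM (NH4)2HPO4, 3.67 mM KH2PO4 and 0.5% glucose. In −N every ammonium salt was left out and KH2PO4 made up the phosphate. All media also carried 0.5% malt extract and 1% casein hydrolysate, so that the −N mycelium still had organic nitrogen and the comparison is not one of all nitrogen. The molybdenum salt of the recipe is an ammonium salt too, and the added KH2PO4 brings potassium. Effects of these changes cannot be told apart from that of ammonium. The other media served only to see whether they moved the same genes. They were +N (25 mM of an ammonium chloride salt added), −C (glucose at 0.02%), +C (glucose at 2%), −P (phosphate salts left out, ammonium made up) and +P (25 mM KH2PO4 added), with 3 libraries each except for +P with 2. The labels call the libraries of a medium biological replicates.

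Laccaria bicolor lives on tree roots, where it hands over nitrogen from the soil and receives sugar. Fungal hyphae take up ammonium through membrane proteins of the AMT/Mep/Rh family, nitrate through a dedicated transporter followed by nitrate reductase and nitrite reductase, and peptides and amino acids through carriers of their own. Ammonium enters metabolism through glutamate dehydrogenase and glutamine synthetase. In yeasts and moulds a good nitrogen source such as ammonium or glutamine keeps the genes for poorer sources low, an arrangement known as nitrogen catabolite repression and run by GATA-type transcription factors.

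The counts summed to 14.9 to 17.2 M reads per Control library and to 12.8 to 18.9 M per −N library, and a tested gene varied between replicates with a common coefficient of 10.6%. The 10 most abundant genes held 15.98 to 16.7% of the reads in −N and 13.6 to 14.6% in Control. After all libraries had been thinned to the size of the smallest one, 16505 to 16672 gene models had a read in the −N libraries and at most 16371 in any other library. The library codes of all 3 −N libraries end in the letter i, whose meaning the labels do not give. Control replicate 1 and −P replicate 3 are the only other libraries that carry it.

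Against Control, 2171 genes rose (14.7% of the genes tested) and 2502 fell (17%), at an adjusted p under 0.05 in edgeR's quasi-likelihood test. Most changes were small. The median log2 fold change was 0.65 among the genes that rose and -0.45 among those that fell, and 0.02 over all genes tested. Upper quartile scaling, which shifts the median of all genes to 0.10, gave 2833 higher and 1959 lower, so that the balance of the directions depends on the scaling. With a term for the letter in the model, 2884 genes were called, and with Control replicate 1 as the only Control library, the one that shares the letter with −N, 1891 were called, the spread being taken from the other groups. What the letter stands for and its part in these counts were not tested.

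Genes for inorganic nitrogen more often fell than rose in −N. Of 7 ammonium transporters 4 fell and 1 rose, with a median log2 fold change of -0.96. Of 17 tested genes for nitrogen assimilation 8 fell and none rose, with a median of -0.32. Over all genes tested 31.7% were called, against 71.4% and 47.1% of the members of these lists, which were drawn from annotation keywords. Annotation text was held for 4514 gene models only, in part from lists of genes that the study chose for their regulation, also in these libraries. Shares of annotated members and of all genes are therefore not on like terms.

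LbAMT1.1a (prot ID JGI-188643), a member of the AMT family that imports ammonium, had 890.2, 938 and 1108 CPM (counts per M reads after scaling) in the Control libraries and 452, 492 and 472 CPM in −N. The groups did not overlap, as held for 23.7% of all genes tested with −N below and 23.4% with −N above, and the gene fell by 1.05 ± 0.10 on the log2 scale (SE, adjusted p = 5.91e-08). LbAMT1.2 (JGI-190906), the other abundant member of the family, went the opposite way. It had 348, 355 and 423 CPM in Control and 555, 585 and 580.4 CPM in −N, and rose by 0.61 ± 0.10 (adjusted p = 0.000122). Per transcript length the genes stood at 595 and 195 RPKM (reads per kilobase and M reads) in Control and at 287 and 298 RPKM in −N, so that the 3-fold difference in level between them was gone without ammonium. Both were lower in surplus ammonium, at a mean of 106 CPM for LbAMT1.1a and 179.5 CPM for LbAMT1.2 in +N, and both were highest in −C, at 1365 and 860.4 CPM.

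LbAMT2.3c (JGI-313221) and JGI-484007, scarce members whose annotation names an Rh-like transporter, were lower in −N and higher in +N. LbAMT2.3c had 6.46, 10.1 and 7.64 CPM in Control and 1.74, 2.20 and 1.70 CPM in −N, a log2 fold change of -2.11 ± 0.31 (adjusted p = 2.07e-05), and reached a mean of 62.3 CPM in +N. JGI-484007 went from a mean of 1.76 ± 0.490 (SD, n = 3) to 0.583 ± 0.0464 CPM in −N (adjusted p = 0.00795) and stood at 16.8 CPM in +N, although its call was lost without Control replicate 1 (adjusted p = 0.051) and in thinned libraries. Reads of near-identical copies may have been split between these genes. LbAMT1.1b (JGI-255304) fell from 3.99 ± 0.563 to 2.08 ± 0.101 CPM (adjusted p = 0.00128). LbAMT2.2 (JGI-331747), which is also called Rh-like, did not pass the test at 7.503 ± 0.766 against 3.86 ± 0.705 CPM (adjusted p = 0.106), although its Control and −N libraries did not overlap. In a fit of the Control and −N libraries alone it was called lower (log2 fold change -0.94, adjusted p = 0.00101). Its −P libraries, which enter the fit of all 20, spread from 11.03 to 44.7 CPM, and its mean in +N was 6.13 CPM. LbAMT2.1 (JGI-300932) stood at 25.5 ± 0.461 and 25.7 ± 0.904 CPM.

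The route from nitrate to ammonium was lower in −N at each of its 3 steps, transport and both reductions. LbNrt (JGI-254042), the nitrate transporter, had 60.96, 70.9 and 63.5 CPM in Control and 30.3, 32.4 and 26.9 CPM in −N (log2 fold change -1.13 ± 0.14, adjusted p = 1.78e-06). JGI-254066, annotated as a nitrate reductase and also as a cytochrome b5 reductase, had 83.6, 85.5 and 88.9 CPM in Control and 25.9, 22.2 and 26.7 CPM in −N (-1.78 ± 0.17, adjusted p = 5.75e-08). JGI-291348, annotated as the nitrite reductase, had 252, 255 and 275 CPM against 81.1, 79.6 and 78.8 CPM (-1.71 ± 0.20, adjusted p = 1.11e-06). In none of the 3 genes did the libraries overlap. A further model annotated with nitrate reductase activity, JGI-627887, was at 113 ± 6.04 against 97.2 ± 5.47 CPM and did not pass the test (adjusted p = 0.0501). The 3 genes that fell were lower still in +N, at means of 7.76, 5.38 and 29.4 CPM, and were higher than Control in −C, at 275, 253 and 375 CPM. Removing ammonium and adding it thus moved the nitrate genes in the same direction, and these comparisons share the Control libraries. Set directly against each other, −N lay above +N by 1.96 for LbNrt (adjusted p = 9.87e-10), by 2.24 for JGI-254066 (adjusted p = 5.77e-09) and by 1.44 for JGI-291348 (adjusted p = 4.88e-06) on the log2 scale.

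The enzymes that take ammonium into amino acids fell as well. JGI-292653, annotated as the NADP+-dependent glutamate dehydrogenase, which joins ammonium to 2-oxoglutarate, had 462, 598 and 674 CPM in Control and 151, 159 and 146 CPM in −N (log2 fold change -1.93 ± 0.25, adjusted p = 4.59e-06). Its mean was 37.5 CPM in +N and 306 CPM in −C. JGI-183088, a glutamine synthetase and at 2116 RPKM in Control the highest of these genes, had 2067, 2104 and 2609 CPM in Control and 1347, 1420.3 and 1358 CPM in −N (-0.72 ± 0.10, adjusted p = 1.93e-05). Smaller decreases were called for JGI-684579, annotated with the same activity (-0.47 ± 0.08), and for JGI-176615, annotated as an arginase, which releases urea from arginine (-0.32 ± 0.09). The further glutamate dehydrogenase JGI-309733 was called at 11.5 ± 0.601 against 8.64 ± 0.120 CPM (adjusted p = 0.0392), and this call was lost without any single one of the 6 libraries. The remaining 9 tested genes of the list, among them the asparaginases JGI-313787 and JGI-439820, did not pass the test.

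**Figure D1:**
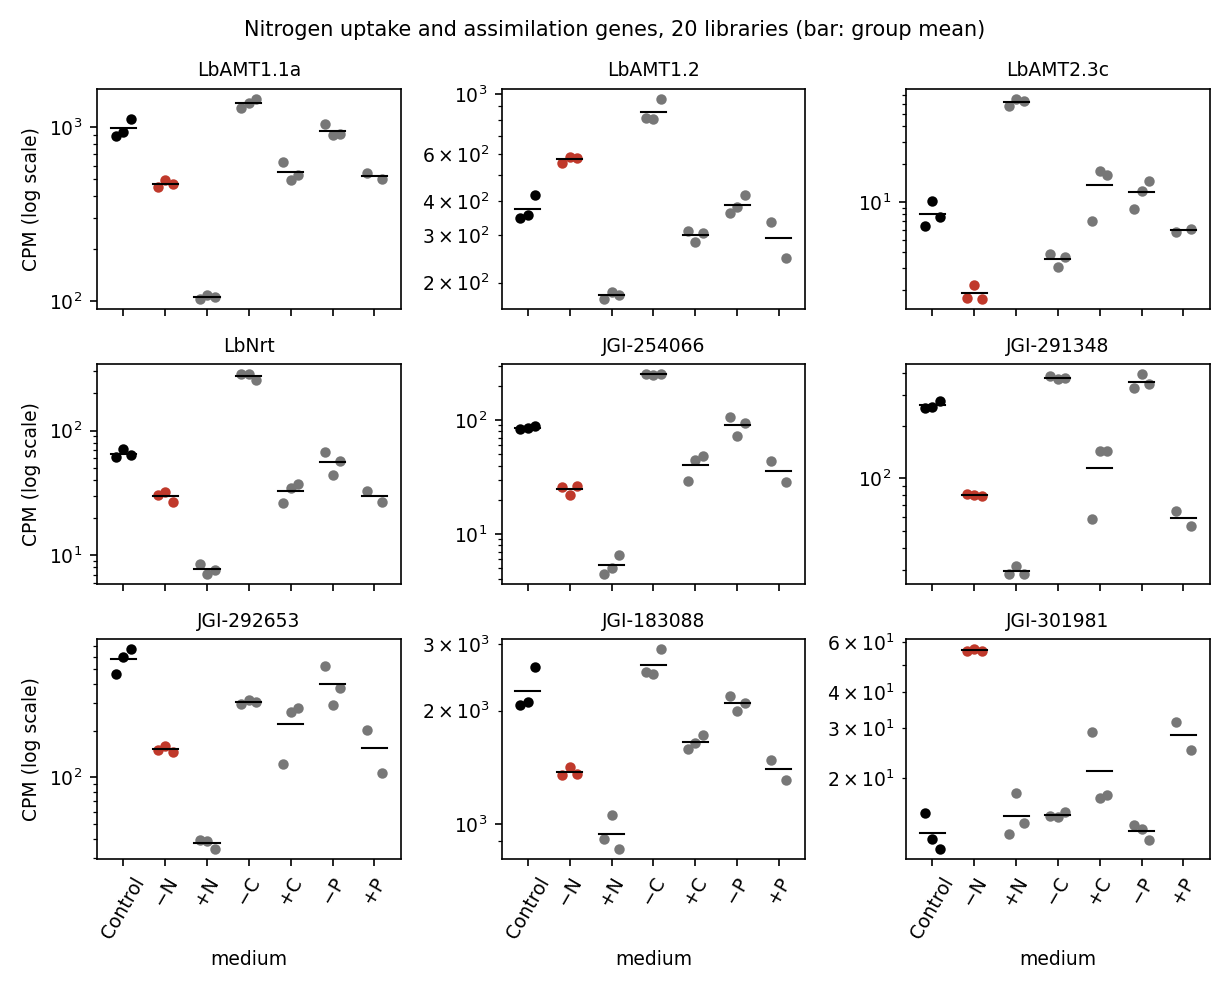
Levels of 9 genes for nitrogen uptake and assimilation in all 20 libraries, as CPM on a log axis, by medium. Points are libraries and bars are means, with Control in black and −N in red. LbAMT1.2 and the peptide transporter JGI-301981 lie above Control in −N and the other 7 genes lie below it.

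Carriers of organic nitrogen did not move as one group. Of 25 tested transporters of amino acids, peptides and polyamines 5 rose and 7 fell, with a median log2 fold change of 0.06. Over all genes tested 14.7% rose and 17% fell. JGI-301981, annotated to the proton-dependent oligopeptide transporter family, had 15.01, 12.2 and 11.3 CPM in Control and 55.8, 56.9 and 56.1 CPM in −N (2.13 ± 0.16, adjusted p = 4.1e-09). Its means in the 5 other media lay between 13.0 CPM in −P and 28.3 CPM in +P, below each −N library. JGI-190652, of the oligopeptide transporter (OPT) family, rose from 19.3 ± 1.63 to 56.8 ± 1.35 CPM (adjusted p = 7.19e-08) but stood higher in −C, at 213 CPM. Among the amino acid carriers JGI-182249 rose from 86.4 ± 13.9 to 182 ± 3.80 CPM (adjusted p = 1.83e-07), while JGI-188015 fell from 171 ± 2.31 to 111 ± 2.84 CPM (adjusted p = 2.34e-07) and reached 718 CPM in −C.

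Proteases, which free amino acids from protein, likewise went both ways, with 13 of 60 tested higher and 7 lower, or 33.3% called against 31.7% of all genes. Without Control replicate 3 these counts were 8 and 4, with the letter as a term 4 and 3, and under upper quartile scaling 17 and 4. LbPR A1 (JGI-302848), an aspartyl protease, had 488, 208 and 196 reads in Control and 807, 627 and 928 in −N and rose by 1.35 ± 0.21 on the log2 scale (adjusted p = 3.84e-05). The peptidase of family S53 JGI-689033 fell by 0.66 ± 0.09 (adjusted p = 5.94e-06). Of 12 protease inhibitors 3 rose and 1 fell. The clitocypins, mushroom inhibitors of cysteine proteases, included one of each: JGI-318727 rose by 0.77 ± 0.17 and JGI-602958 fell by 2.60 ± 0.62 on the log2 scale.

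Small secreted proteins (SSPs) held some of the sharpest responses in both directions. Mycorrhiza-induced SSPs (MiSSPs) are known for their raised expression in the root symbiosis, and several act on the host plant, but here no plant was present. Of 29 tested MiSSPs 6 rose and 5 fell, with a median log2 fold change of 0.03, and of 96 other SSPs 19 rose and 16 fell, where 14.7% of all genes rose and 17% fell. The MiSSP counts were 3 and 3 with the letter as a term and 4 and 3 without Control replicate 3, and those of the other SSPs 11 and 13 with the letter.

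JGI-307960, annotated as a MiSSP without a known function, went from 5, 11 and 0 reads in the Control libraries to 390, 210 and 375 reads in −N, or 0.342 ± 0.370 against 19.6 ± 3.75 CPM, and rose by 5.80 ± 0.60 on the log2 scale (adjusted p = 2.62e-07). MISSP23.5 (JGI-325402) had 4.36, 4.41 and 3.33 CPM in Control and 92.9, 97.2 and 87.5 CPM in −N, a log2 fold change of 4.51 ± 0.35 (adjusted p = 4.44e-09). MISSP16.6 (JGI-315282) had 4.01, 3.87 and 3.11 CPM in Control and 66.2, 81.4 and 76.5 CPM in −N (4.34 ± 0.18, adjusted p = 6.48e-13). The 3 genes stood lower in surplus ammonium than in any other medium, with means of 0.0762, 1.195 and 0.532 CPM in +N. MISSP16.6 also rose on −C, +C and +P, to 17.7, 17.0 and 17.5 CPM, whereas MISSP23.5 and JGI-307960 were not called higher in any other medium. MISSP23.5 nevertheless had 3.76, 15.6 and 15.9 CPM in the −P libraries, a wide spread, and 6.85 to 7.22 CPM in −C, above each Control library.

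The SSP that fell most was JGI-705940, with 277, 288 and 346 CPM in Control and 14.6, 16.8 and 15.7 CPM in −N (-4.28 ± 0.29, adjusted p = 8.33e-10). It was also lower in −C (40.2 CPM), +C (121 CPM) and +P (97.4 CPM) and higher in +N (606 CPM). The MiSSP JGI-485570 fell from 36.0 ± 4.93 to 8.81 ± 1.02 CPM (adjusted p = 1.32e-09), and the SSP JGI-658419 from a mean of 179 to 72.6 CPM (adjusted p = 1.39e-07). JGI-705125, listed as an SSP, rose from 4.32 to 25.1 CPM (adjusted p = 3.92e-08). Of 10 hydrophobins, small coat proteins of aerial hyphae, LbH14 (JGI-318421) alone was called, at 24, 16 and 15 reads against 8, 1 and 2. Over all genes tested 31.7% were called, and 3 of the 10 hydrophobins lay below 1 RPKM.

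Enzymes of the fungal cell wall fell more often than they rose where they act on chitin. Of 25 tested chitin enzymes 11 fell and 4 rose, with a median log2 fold change of -0.25, where 17% of all genes fell and 14.7% rose. They include polysaccharide deacetylases of family CE4, which remove acetyl groups from chitin, and of these 5 of 7 fell and none rose. In +N 6 of the 7 were higher than Control, as were 14.1% of all genes. JGI-152235, the most abundant of them, had 681, 659 and 755 CPM in Control and 321, 337 and 339 CPM in −N (-1.07 ± 0.09, adjusted p = 1.23e-08) and a mean of 1667 CPM in +N. JGI-307596 had 42.5, 36.4 and 33.8 CPM against 6.13, 6.82 and 6.03 CPM (-2.58 ± 0.29, adjusted p = 8.15e-07), with 369 CPM in +N, and JGI-296684 fell from 6.30 ± 1.23 to 1.95 ± 0.661 CPM (adjusted p = 3.8e-06). One chitinase of family GH18, JGI-585735, rose from 2.57 to 6.19 CPM (adjusted p = 9.66e-05).

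Of 129 other carbohydrate-active enzymes 30 rose and 30 fell, and under upper quartile scaling 40 rose and 23 fell. The largest increase among them was that of JGI-382749, annotated to glycoside hydrolase family GH17 with glucan 1,3-beta-glucosidase activity on the wall polymer glucan. It had 45.5, 40.7 and 39.3 CPM in Control and 348, 362 and 354 CPM in −N (3.08 ± 0.15, adjusted p = 1.15e-11), and its means in the other media ran from 23.5 CPM in +N to 90.4 CPM in −C. JGI-300689, a polysaccharide lyase of family PL8, rose from 53.0 to 112 CPM (adjusted p = 7e-08). LbAmy1b (JGI-395881), whose symbol denotes an amylase, had 129.6, 119.6 and 143 CPM in Control and 43.0, 41.3 and 41.0 CPM in −N (-1.65 ± 0.11, adjusted p = 4.28e-10), and was likewise lower in −C (30.9 CPM) and higher in +N (370.1 CPM). Of 15 sugar transporters 3 rose and 3 fell, and of all genes tested 14.7% rose and 17% fell. The sugar symporter JGI-702552 fell from a mean of 773 to 349 CPM (adjusted p = 2.96e-06) and JGI-600674 rose from 55.2 to 106 CPM (adjusted p = 3.92e-08).

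Histones, the proteins around which DNA is wound and which dividing nuclei make in bulk, fell in 8 of 19 tested genes and rose in none, with a median log2 fold change of -0.25. Upper quartile scaling gave 7 lower and 3 higher, and a fit of the Control and −N libraries alone 9 lower and 2 higher. In RNA of whole colonies, fewer cells that express a gene and less of its RNA per cell cannot be told apart. The histone H3 gene HTR16206 (JGI-302849) had 36.9, 41.1 and 32.1 CPM in Control and 12.2, 12.4 and 12.7 CPM in −N (-1.56 ± 0.16, adjusted p = 2.79e-07). HTR16202 (JGI-251730), also annotated as H3, fell by 2.24 ± 0.25, the linker histone HON16202 (JGI-306200) by 1.06 ± 0.12 and HTB16202 (JGI-185040) by 0.84 ± 0.09 on the log2 scale. Each of these 4 was lower in −C as well and higher in +N, where 11 histones were called higher and none lower. In −C 13 were lower and none higher. Over all genes tested 14.7% were higher and 17% lower in −N, 14.1% and 15.7% in +N, and 18.2% and 19.4% in −C.

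Of 12 tested mating pheromones and pheromone receptors 4 fell and 1 rose, with a median of -0.66. Among all genes tested 17% fell and 14.7% rose. The STE3-type receptor JGI-632625 had 67.6, 59.8 and 74.2 CPM in Control and 21.4, 22.4 and 23.2 CPM in −N (-1.59 ± 0.09, adjusted p = 1.16e-10). Lbrcb5 (JGI-308027), placed in the list by its symbol, had 16.6, 8.48 and 7.22 CPM in Control and 3.72, 3.26 and 3.30 CPM in −N (adjusted p = 0.000265). The pheromone gene Lbphb (JGI-313028) had 43, 41 and 19 reads against 13, 6 and 8, and its call was lost without −N replicate 3 (adjusted p = 0.05253).

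Regulators moved in both directions. Of 127 transcription factors 20 rose and 30 fell, against 14.7% and 17% of all genes. These counts were 14 and 19 without Control replicate 3, 9 and 20 with the letter as a term, and 27 and 22 under upper quartile scaling, which turns their balance. The C2H2 zinc finger protein JGI-445505 showed the largest decrease, from 47.3, 33.2 and 46.5 CPM to 4.68, 3.64 and 5.15 CPM (-3.22 ± 0.27, adjusted p = 1.62e-08). JGI-582197, annotated as a response regulator of a two-component system, fell by 1.06 ± 0.12 (adjusted p = 6.74e-07). JGI-293949, of the GATA type to which the nitrogen regulators of other fungi belong, had 507, 485 and 557 CPM in Control and 291, 281 and 294 CPM in −N (-0.84 ± 0.08, adjusted p = 1.2e-07). The GATA-type gene JGI-685209 fell by 0.52 ± 0.07 (adjusted p = 3.11e-06), from a mean of 355 to 248 CPM. Neither decrease was limited to −N, as both genes were also called lower in +N, −C, +C and +P. In these media the log2 fold changes were -0.34, -0.68, -0.55 and -0.80 for JGI-293949. For JGI-685209 they were -0.19, -0.32, -0.37 and -0.60. Of 138 protein kinases 32 rose and 15 fell, but with the letter as a term these counts were 17 and 12. The kinase that fell most, JGI-567679, had 56.2, 48.4 and 53.1 CPM in Control and 2.10, 2.20 and 2.32 CPM in −N (-4.57 ± 0.28, adjusted p = 2.1e-10).

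Among enzymes of other pathways, 9 of 26 cytochromes P450 rose and 3 fell, and without Control replicate 3 the increases numbered 6. In the main fit 14.7% of all genes tested rose and 17% fell. ERG5 (JGI-187166), which acts late in the synthesis of the membrane sterol ergosterol, fell by 0.91 ± 0.09 on the log2 scale (adjusted p = 2.02e-07). THIK-5 (JGI-311721), in the beta-oxidation list, fell by 0.81 ± 0.08 (adjusted p = 8.75e-08) while 9 of the 12 members of that list were not called. LbPPX1 (JGI-317181), in the phosphate list, fell from a mean of 52.7 to 29.1 CPM (adjusted p = 1.31e-06) although phosphate had been made up in −N. Of 30 genes of the redox and thioredoxin system 5 fell and 1 rose, with LbMnSOD3 (JGI-291347), a superoxide dismutase, at 539 against 367 CPM.

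Lists of basic functions are given beside the 14.7% of all genes that rose and the 17% that fell, with no test of the lists. Of 46 genes annotated as ribosomal 5 rose and 4 fell, of 17 genes for N-glycosylation 1 rose and 1 fell, of 49 chromatin enzymes 5 rose and 6 fell, and of 6 genes for fatty acid synthesis and desaturation none passed the test. For the chromatin enzymes the balance turned under upper quartile scaling (9 higher, 3 lower) and without Control replicate 3 (4 and 3). JGI-654096, annotated in a single source as a protein of the 60S ribosome, was the only one of the ribosomal list over 4-fold higher, with 1.92, 1.202 and 0.778 CPM in Control and 13.0, 29.9 and 22.4 CPM in −N (4.02 ± 0.50, adjusted p = 2.82e-06). It stood also at 9.90 CPM in +C and 17.0 CPM in +P.

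**Figure D2:**
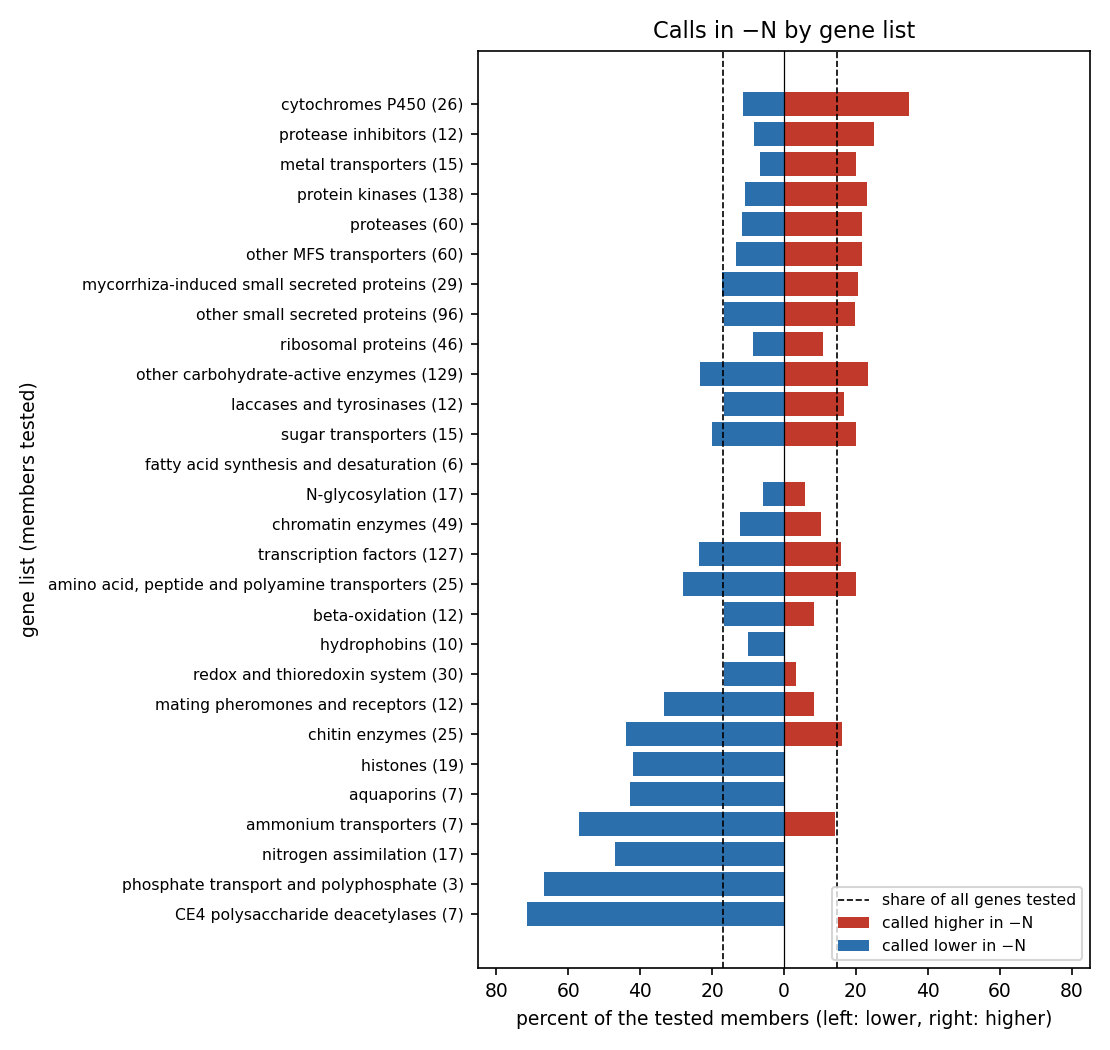
Share of the tested members of each gene list called higher (right) or lower (left) in −N than in Control, in percent, with the share over all tested genes as dashed lines. The 7 ammonium transporters, 17 nitrogen assimilation genes and 7 CE4 deacetylases reach further to the lower side than all genes do.

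A pair of gene lists was taken from expression clusters (nodes) that the study itself formed on these 20 libraries, and their counts are therefore a description without independent weight. In the first list, 19 genes of a pair of nodes, all fell in −N, with a median log2 fold change of -2.55 and 13 over 4-fold. The same list was lower in −C for 19 genes, in +C for 18 and in +P for 17, but in +N 4 were lower and 6 higher. JGI-691008 (34.5, 29.1 and 32.8 CPM in Control, 0.721, 1.44 and 1.13 in −N) and JGI-670696 (61.7, 55.8 and 57.9 against 3.96, 3.26 and 3.66 CPM) show the size of the change. The other list is a node of 18 genes, of which 17 were higher in +N. The paper describes this node as raised at reduced ammonium, which is the reverse of the direction found here. The directions here follow the labels of the libraries, taken as given, and the reason for the difference was not tested. In −N 7 of the 18 fell and none rose, among them JGI-602788 from a mean of 7.32 to 0.812 CPM (adjusted p = 2.31e-06). Over all genes tested 17% fell and 14.7% rose in −N, and 15.7% were lower and 14.1% higher in +N. The shares of all genes called lower were 19.4% in −C, 4.75% in +C and 5.6% in +P.

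By size, increases and decreases were not alike. Of the genes that rose, 951 changed by under 1.5-fold, 661 by 1.5 to 2-fold, 468 by 2 to 4-fold and 91 by over 4-fold. Of those that fell, 1650, 524, 252 and 76 did so. The 91 genes over 4-fold higher are 0.618% of the genes tested and the 76 lower 0.516%, and a test against a 4-fold change itself was passed by 6 and 16. Larger increases were those of scarcer genes. The median level of the 6 libraries went from 20.0 RPKM among increases under 1.5-fold to 0.887 RPKM among those over 4-fold, where 49 of 91 genes lay below 1 RPKM and 15 had any annotation. Among decreases it went from 37.9 to 10.7 RPKM, with 10 of 76 genes below 1 RPKM and 47 annotated. Among the genes with at least 10 reads in each of the 20 libraries 9 were over 4-fold higher, but this filter also drops genes for being low in Control or in another medium.

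Genes at the floor of detection have a lower bound only. In 38 of the genes that rose no Control library had more than 3 reads, and in 7 of those that fell no −N library had. JGI-619720, without known function, had 87, 91 and 44 reads in Control and 3, 1 and 1 in −N. Of the risers, JGI-489335 had 3, 0 and 1 reads against 20, 12 and 28 (at least 6.05-fold higher), JGI-602601 1, 0 and 1 against 13, 16 and 19 (at least 5.06-fold), JGI-617285 1, 1 and 0 against 15, 14 and 18 (at least 4.92-fold) and JGI-330497 2, 0 and 1 against 17, 12 and 12 (at least 4.34-fold). None of these 4 carries an annotation.

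The largest decreases of genes with a solid count belonged largely to genes of unknown function. JGI-691026 had 112, 93.3 and 91.1 CPM in Control and 4.14, 2.81 and 3.04 CPM in −N (-4.88 ± 0.36, adjusted p = 1.86e-09), and JGI-669899, JGI-670757 and JGI-663360 had log2 fold changes of -4.41, -4.24 and -3.75. These 4 genes were lower in −C, +C and +P too and were not called in +N. The riser JGI-708196, annotated as unknown in one place and as a cytochrome b5 fatty acid desaturase in another, had 10.6, 7.74 and 7.29 CPM in Control and 137, 150.1 and 143 CPM in −N (4.05 ± 0.15, adjusted p = 1.1e-13). It also lay above the Control libraries in −C (38.4 to 44.2 CPM), +C (22.5 to 27.4 CPM) and +P (38.6 and 28.2 CPM).

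In amount of transcript the change was carried by abundant genes. Genes that rose gained 54338 CPM in sum and genes that fell lost 108057 CPM, and of these sums the genes over 4-fold held 1.78% and 3.17%. CPM are shares of the reads and the sums hold called genes only, so that they give no net loss of transcript. They were not made under upper quartile scaling, which called 2833 genes higher and 1959 lower. The 4 largest gains made up 34.2% of all gain and the 4 largest losses 7.70% of all loss. JGI-293272, without annotation, was the largest single gain, with 26676, 24033 and 27739.7 CPM in Control and 38118, 38468 and 40449.8 CPM in −N (0.58 ± 0.14, adjusted p = 0.00387), and its mean was 13849.6 CPM in +N. Against Control replicate 1 alone, a lone library assumed to vary like those of the other groups, its log2 fold change was 0.55 and its call was lost (adjusted p = 0.100). It was followed by JGI-469385 (3675 ± 313 to 6712 ± 573 CPM), JGI-487613 (2014 ± 98.5 to 3637 ± 82.5 CPM) and JGI-630286, an ABC transporter (552 ± 57.2 to 1606 ± 74.1 CPM, adjusted p = 1.9e-07). JGI-469385 also lay above all Control libraries in each +N, −C, +C and +P library, with 6429, 6763 and 5974 CPM in +N. In −P it had 3670, 6934 and 6908 CPM.

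Among the losses, JGI-660307, without annotation, had 3315, 4149.9 and 4760.3 CPM in Control and 1412, 1382 and 1391 CPM in −N (-1.55 ± 0.17, adjusted p = 4.26e-07). LbCipC1 (JGI-399510) had 3188, 3606 and 3887 CPM against 1407, 1473 and 1223 CPM (-1.38 ± 0.13, adjusted p = 4.99e-08). JGI-455116 fell from 2769 ± 467 to 1021 ± 55.6 CPM (adjusted p = 3.32e-07) and JGI-656016 from 5773 ± 597 to 4077 ± 40.0 CPM (adjusted p = 0.00395). The first 3 of these 4 were raised in +N, to 9644, 7808 and 10868 CPM, so that the means of each stood in the order −N, Control, +N.

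By abundance, scarce genes tended upwards and abundant genes downwards. Below 1 RPKM 13.1% of 793 genes rose and 2.40% fell, with a median log2 fold change of 0.43. From 1 to 10 RPKM 17.4% of 5091 rose and 6.05% fell (median 0.23), from 10 to 100 RPKM 13.8% of 7611 rose and 23.3% fell (median -0.05), and at 100 RPKM and over 10.98% of 1230 rose and 32.6% fell (median -0.12). Upper quartile scaling moved the 4 medians to 0.50, 0.30, 0.02 and -0.05 and kept their order. The same order was found with the letter as a term (0.41, 0.19, -0.04 and -0.12) and in thinned libraries (0.30, 0.23, -0.04 and -0.10).

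**Figure D3:**
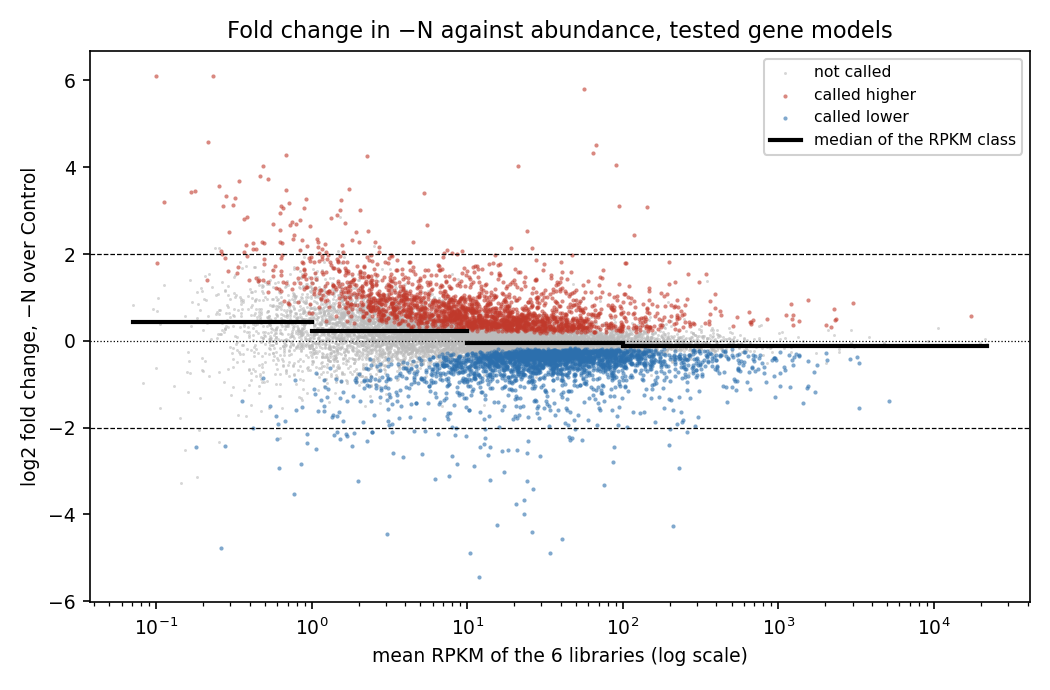
Log2 fold change of −N against Control for each tested gene model, plotted against its mean level over the 6 libraries in RPKM on a log axis. Genes called higher or lower are coloured, black bars are the medians of the 4 abundance classes, from 0.43 below 1 RPKM to -0.12 at 100 RPKM and over, and dashed lines mark log2 values of 2 and -2.

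The shift was seen in each −N library, but it was not particular to them at the low end. Taken against the Control mean, the median of the genes below 1 RPKM was 0.48, 0.40 and 0.42 in the −N libraries and 0.10, 0.15 and -0.22 in the Control libraries. It also reached 0.43 in +P replicate 2, 0.42 in +N replicate 3, 0.33 in +C replicate 2 and 0.31 in +N replicate 1. For the genes from 1 to 10 RPKM the −N libraries had medians of 0.22 to 0.26, above the highest of all other libraries, 0.15 in +P replicate 2. Control replicate 3, the Control library with the fewest genes detected, stood lowest of its group, and without it the class medians were 0.33, 0.17, -0.04 and -0.10.

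**Figure D4:**
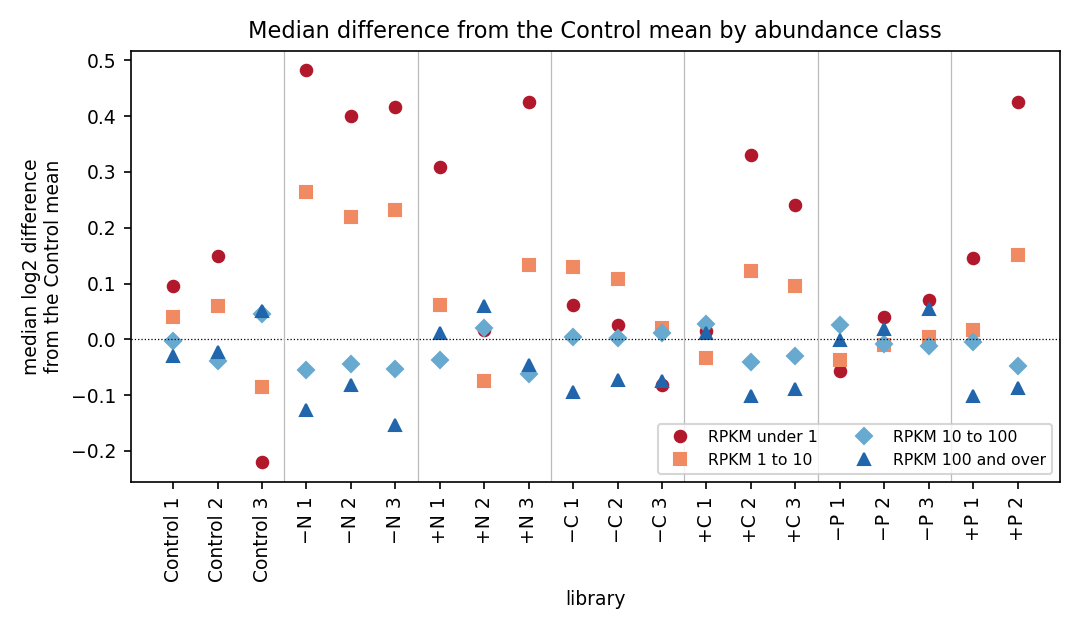
Median log2 difference from the Control mean in each of the 20 libraries for 4 classes of gene abundance (RPKM). The 3 −N libraries hold the highest medians in the class from 1 to 10 RPKM, while in the class below 1 RPKM single libraries of +P and +N lie within their range.

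Many of the genes were moved by other media too, and more so among the decreases. All media were compared with the same 3 Control libraries, so that these counts describe the calls and are no test. At least 1 other medium moved 54.2% of the genes that rose and 67.1% of those that fell in the same direction. Among increases this share went from 58.3% of those under 1.5-fold to 27.5% of those over 4-fold, whereas among decreases it went from 59.0% to 86.8%. The matching shares of all genes tested are given below by single medium only. Median levels also differed, at 0.887 RPKM for increases over 4-fold and 10.7 RPKM for such decreases. The part of abundance in these shares was not tested. No other medium had a call in either direction for 635 genes that rose (29.2%) and 541 that fell (21.6%).

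By number, −C shared the most calls, and it also had the most calls of any other medium, with 18.2% of all genes higher and 19.4% lower. In −C 863 of the 2171 risers were higher as well and 281 lower, and 1209 of the 2502 fallers were lower and 198 higher. In +N most of these genes were not called, 1430 of the risers and 1275 of the fallers. Of the risers 240 were higher in +N and 501 lower, and of the fallers 540 were lower and 687 higher, where 14.1% of all genes were higher and 15.7% lower. In +P 456 risers and 655 fallers were called in the same direction, and 9 and 10 in the opposite one. For +C these numbers were 378 and 487, and 17 and 41. The shares of all genes called higher and lower were 4.23% and 5.6% in +P and 4.29% and 4.75% in +C. Of the −N genes 1 was called in the same direction in −P, where 0.0951% of all genes were higher and 0% lower. Set directly against +N, −N differed in the same direction for 1695 risers and 1810 fallers, where 25.2% of all genes were higher and 23.6% lower. Against −C it was 1049 and 1089 (background 19.2% and 19.6%), against +C 1020 and 1399 (10.4% and 13.2%) and against +P 476 and 642 (4.41% and 5.41%).

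All altered media except −P raised 51 genes and lowered 109. The 109 had median log2 fold changes of -0.74 for −N, -0.66 for +N, -0.71 for −C, -0.54 for +C and -0.61 for +P. For −P, which called none of them, the median was -0.14, but the −P libraries were not alike for every gene. JGI-567679 had 47.0, 24.1 and 19.9 CPM in −P against 56.2, 48.4 and 53.1 CPM in Control. The kinase JGI-567679 and the zinc finger protein JGI-445505 belong to the 109. So do the glutamate dehydrogenase JGI-292653 and the GATA-type genes JGI-293949 and JGI-685209. Of these 109 genes 9 were over 4-fold lower in −N, and of the 51 none was over 4-fold higher.

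The −P libraries, which are not those of Control and in which 14 genes were called higher and 0 lower, allow the comparison to be made with other plates. Against −P, 1415 of the 2171 risers (65.2%) and 1804 of the 2502 fallers (72.1%) were called in the same direction, where 12.4% of all genes were higher and 15.3% lower. Of the genes over 4-fold it was 66 of 91 and 64 of 76, with median log2 fold changes of 2.19 and -1.93 against −P and 2.68 and -2.48 against Control. One of the −P libraries carries the letter i. For some of the largest fallers −P replicates 2 and 3 lay below every Control library. JGI-691026 had 98.8, 43.0 and 41.0 CPM in the −P libraries and JGI-669899 had 45.4, 16.3 and 14.3 CPM.

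A gene was counted as particular to −N when it was called against Control and called in the same direction against each of the 5 other media. This held for 229 genes that were higher (1.56% of the genes tested) and 215 that were lower (1.46%). In 222 of the 229 each −N library lay above all 17 other libraries, and in 213 of the 215 below them. The selection by tests against every other medium itself favours this separation, which is therefore a description only. Their changes were moderate, with median log2 fold changes of 0.91 and -0.74 and 24 and 15 genes over 4-fold. The definition asks for a difference from each other medium, not for no change in it. Against Control, 65 of the 229 were also called higher, and 90 of the 215 also lower, in at least 1 other medium. In +N 96 of the 229 were lower than Control and 8 higher, and 108 of the 215 were higher and 16 lower, a balance that the definition itself favours since it asks for a difference from +N. The definition was met by 84 and 71 genes with the letter as a term, and by 128 and 141 without −N replicate 1.

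Among the particular genes were the MiSSPs JGI-307960, MISSP23.5 and MISSP16.6, the putative desaturase JGI-708196, the peptide transporter JGI-301981, the GH17 enzyme JGI-382749 and the P450 JGI-185962 on the higher side. On the lower side were LbAMT2.3c, the SSP JGI-705940, the CE4 deacetylases JGI-307596 and JGI-152235, LbCipC1 and ERG5. JGI-467459, annotated as an SSP and as a splicing factor, had 17.2, 15.2 and 22.1 CPM in Control and 1.68, 1.67 and 1.75 CPM in −N (-3.40 ± 0.49, adjusted p = 1.98e-05), and its mean in +N was 8859.6 CPM. JGI-463087 (47, 28 and 28 reads against 2, 7 and 2) and JGI-313246 (20.6 ± 2.90 against 3.49 ± 0.574 CPM) were lower without a known function. JGI-313246 also lay below the Control libraries in −C (5.38 to 8.50 CPM), +C (7.55 to 9.40 CPM) and +P (4.98 and 8.26 CPM). JGI-593664, the fifth by fold of the particular risers that met the naming rule, had 4, 2 and 0 reads in Control and 32, 22 and 20 in −N and none in the +N and −C libraries.

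**Figure D5:**
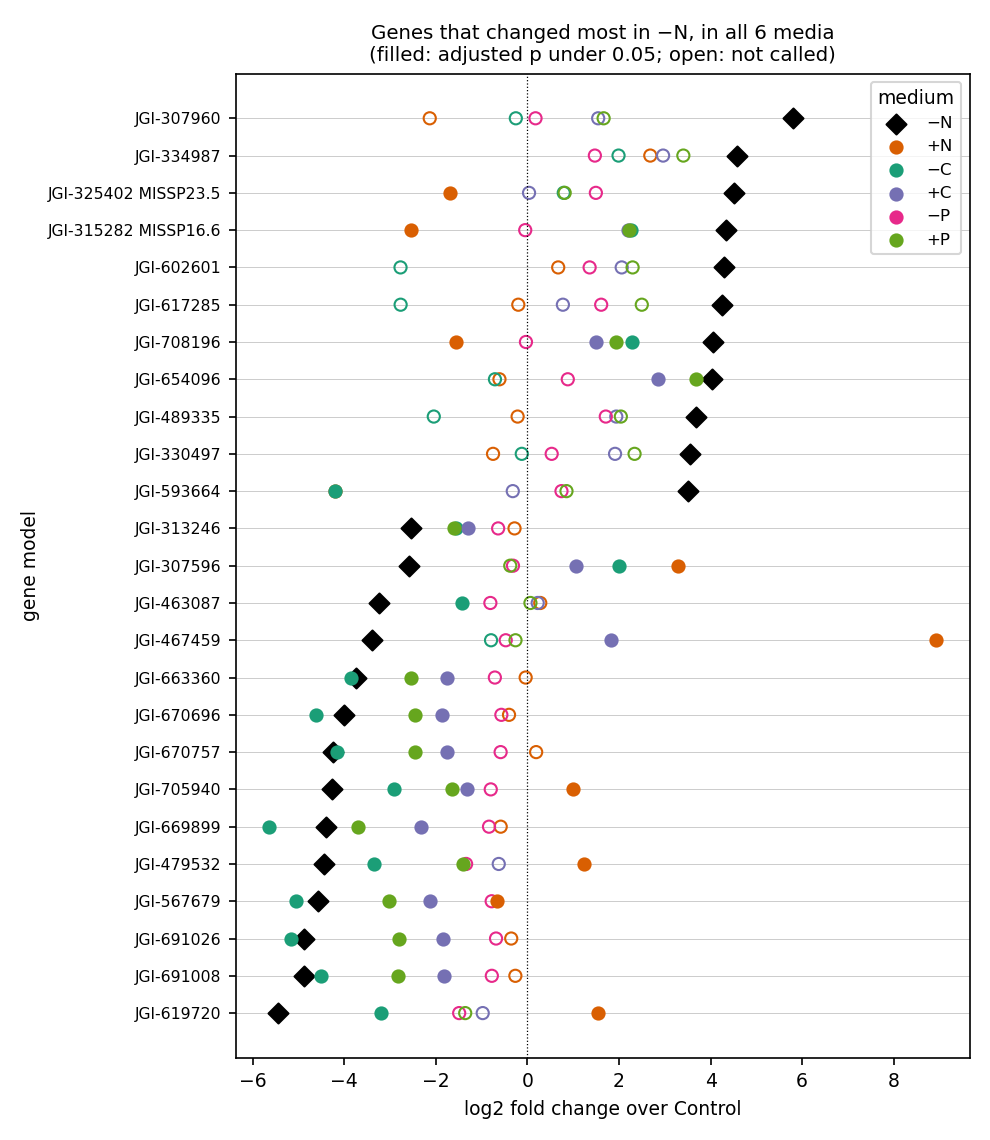
Log2 fold change against Control in the 6 altered media for 25 genes with the largest changes in −N or among the genes particular to it. Filled markers passed the test and open ones did not, with −N as diamonds. For JGI-691026, JGI-669899 and JGI-670757 the markers of −C lie close to those of −N and the markers of +N and −P lie closer to 0, whereas for JGI-467459 those of −N and +N are on opposite sides of 0. At JGI-593664 the +N and −C markers coincide, since both media had no read.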

How the data were processed

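RNA was sequenced in pairs of 150 bp reads from polyadenylated RNA with a stranded kit. The authors trimmed the reads and used CLC Genomics Workbench to map them onto JGI reference transcripts (v2), as their methods state. The deposited raw counts per gene model were used as they stand. Whether unique or total reads were counted and whether strand was used is not given in the sources used here, so that near-identical copies and antisense neighbours are uncertain. The authors also deposited RPKM values, from which only transcript lengths were taken here, and RPKM in the text was recomputed from scaled counts. The DESeq2 test of the authors was not used.

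Counts of all 20 libraries entered 1 fit in edgeR 4.0.16 (R 4.3.3) with TMM scaling, the default filter by group, a mean per medium and no covariate. Genes were called at a Benjamini-Hochberg adjusted p under 0.05 within each comparison, and p-values in the text come from its quasi-likelihood test. The SE was derived from the F statistic. CPM are given as mean ± SD over 3 libraries, or 2 in +P. Where all libraries of a group had 3 reads or fewer, the fold change was bounded by that floor, which covers counting error only. A group at 0 reads has a fitted value that depends on the prior count of 0.125. Setting these 11 genes at their bound left the medians as they were. The script was tested on simulated counts.

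Named genes are the 10 risers and 10 fallers with the largest fold change, 10 or more reads in every library of the group that is higher and no overlap between groups, the 4 and 4 with the largest change in CPM, the 5 and 5 largest among the genes particular to −N, all tested genes of the ammonium transporter and nitrogen assimilation lists, and up to 4 genes of each other list with the smallest p. Symbols come from RefSeq's table for assembly V1.0 (6580 identifiers matched, 351 with a symbol) and functions from the annotation text of the study, held for 4514 gene models in all. Part of this text stands in lists of genes that the study chose for their regulation, also in these libraries. Members and lists were chosen with earlier results of these data known. Replicates of a group were not identical in any pair. Alternatives comprised other scalings, DESeq2 1.42.0, other filters, fewer samples, a term for the letter i, Control replicate 1 alone, a replicate block, thinned libraries and each replicate left out.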

Additional observations from a re-analysis of the deposited data

How the results depend on the processing

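The counts of genes called in either direction stayed within 1.5 times under other scalings, DESeq2, other filters, thinned libraries, a fit of Control and −N alone and each replicate left out. With the term for the letter i 2884 genes were called (1250 higher, 1634 lower), 84 and 71 were particular to −N, and 54.9% and 63.5% of the genes called higher and lower in the main fit were called again. Against Control replicate 1 alone 1891 were called (768 higher, 1123 lower) and 1092 of them were also moved by another medium, against 2855. This alternative has fewer Control libraries, and otherwise the cause was not tested. The number over 4-fold higher was 154 with no filter, 9 with at least 10 reads in each library, 58 with Control and −N libraries alone, 59 in thinned libraries and 6 with the limit inside the test, which left 16 lower. Leaving out each replicate in turn gave between 128 and 236 particular genes higher and between 141 and 210 lower, the lowest of each without −N replicate 1, and without −N replicate 2 150 were higher.

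Classes by CPM in place of RPKM gave 29 genes called lower below 1 (main 19) and 672 at 100 and over (main 401). Of 153 named genes 130 were called, none of which reversed, and 98 kept their call under every alternative in which they were tested, as the filters left some genes out. The uncalled genes near 0 that turned sign were JGI-300932 (letter i -0.014, thinned -0.0057, without one replicate -0.015 to 0.035), JGI-313787 (Control replicate 1 alone 0.025), JGI-582908 (upper quartile 0.027, letter i 0.0029, Control replicate 1 alone 0.11, without one replicate -0.12 to 0.028) and JGI-299654 (Control replicate 1 alone 0.21, thinned 0.084, without one replicate -0.21 to 0.024). The labels give a number to each replicate but tie it to no shared batch, and same-numbered Control and −N libraries did not deviate together (r of 0.04, -0.05 and 0.04 across genes). With a replicate block 2088 genes were higher and 2416 lower, 4504 in all. Depth limits the genes below 1 RPKM, whose 3-read floor is a large part of their level.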

Other observations

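Of 7 aquaporins 3 fell and none rose, with JGI-671860 at -0.60 ± 0.12 on the log2 scale (adjusted p = 0.000705). The model JGI-482072 was called at -0.90 ± 0.26, a call lost without Control replicate 1 (adjusted p = 0.0635). Of 15 metal transporters 3 rose and 1 fell, and of all genes tested 14.7% rose and 17% fell. ZIP-D (JGI-189929), by its symbol of a family that imports zinc, fell from a mean of 138 to 91.7 CPM (adjusted p = 4.7e-05), and CDF-F (JGI-244654), of the cation diffusion facilitators, rose from 8.80 to 13.7 CPM (adjusted p = 0.00116).

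Of 12 laccases and tyrosinases, copper enzymes that oxidise phenols, 2 rose and 2 fell, but without Control replicate 3 these counts were 4 and 0. The tyrosinase R3 (JGI-185727) rose from a mean of 18.8 to 31.3 CPM (adjusted p = 6.56e-05). The tyrosinase R1 (JGI-295069), among the most abundant transcripts of the mycelium, had 98363, 92833 and 100576 reads in Control and 76391, 63438 and 93862 in −N and was called lower (adjusted p = 0.0258), but not without Control replicate 3 (adjusted p = 0.120) and not without any of the −N replicates. Of 60 further transporters of the major facilitator superfamily 13 rose and 8 fell, and of all genes tested 14.7% rose and 17% fell.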
